A study of Arabidopsis thaliana with 20 samples.

Results

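Indole glucosinolates and camalexin are sulfur-rich defence compounds that Arabidopsis thaliana makes from tryptophan. The genes described here are 9 of the 32744 genes in the count files, chosen by identifier. They are MYB34 (AT5G60890), MYB51 (AT1G18570), CYP79B2 (AT4G39950), CYP79B3 (AT2G22330), CYP83B1 (AT4G31500), SUR1 (AT2G20610), CYP81F2 (AT5G57220), CYP71A13 (AT2G30770) and PAD3 (AT3G26830). They were read in 10 RNA-Seq libraries labelled N-limiting, from rosettes of wild-type plants grown in soil at 60% water content for 8 days and then for 19 days on a phenotyping platform, with nitrate given at 2.5 mM and the rest of the water free of it. The series also holds 10 samples labelled N-sufficient, with nitrate at 5 mM, but the file of each one has the same count for every gene as the N-limiting file with the same number, in 10 of 10 cases. No comparison of nitrogen supplies could therefore be made, and the files on their own cannot tell which supply the counts belong to. The text that describes the series gives 5 biological replicates, against the 10 given by the labels. The paper that reported the data also describes 10 replicates, of Col-0 plants under nitrogen deficiency. The values below are the spread of each gene between 10 libraries of a single condition.

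In this pathway, the transcription factors MYB34 and MYB51 activate the genes of indole glucosinolate synthesis. CYP79B2 and CYP79B3 are cytochrome P450 enzymes that both turn tryptophan into indole-3-acetaldoxime, the compound at which the branches part. CYP83B1 oxidises the aldoxime towards glucosinolates, and SUR1, a carbon-sulfur lyase, frees the thiol in the next part of the core pathway, also for glucosinolates made from methionine. CYP81F2 then hydroxylates the indole ring of the finished glucosinolate. CYP71A13 instead leads the aldoxime towards camalexin, the main phytoalexin of this species, and PAD3 (CYP71B15) carries out the final steps to camalexin. In leaves the camalexin branch is known for being nearly silent until a pathogen or another stress switches it on, through the transcription factor WRKY33 among others.

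The sequences upstream of some of the genes are shown as a description, and whether they bear on the levels was not tested. They were read from the RefSeq genome TAIR10.1, 300 bases immediately before each gene's annotated start, and are written from 5′ to 3′ on the gene's strand. In the first set, for the pairs of genes whose levels were most alike, capitals mark TTGAC on either strand, the core of the W-box that WRKY factors bind.
CYP83B1, chr4:15275405-15275704, minus strand: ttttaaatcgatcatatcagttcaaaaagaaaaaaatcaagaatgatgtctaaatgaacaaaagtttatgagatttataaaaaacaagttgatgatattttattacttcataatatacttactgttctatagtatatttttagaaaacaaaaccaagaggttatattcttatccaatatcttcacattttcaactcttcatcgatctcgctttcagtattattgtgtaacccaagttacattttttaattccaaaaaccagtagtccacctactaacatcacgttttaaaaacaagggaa
CYP81F2, chr5:23187540-23187839, plus strand: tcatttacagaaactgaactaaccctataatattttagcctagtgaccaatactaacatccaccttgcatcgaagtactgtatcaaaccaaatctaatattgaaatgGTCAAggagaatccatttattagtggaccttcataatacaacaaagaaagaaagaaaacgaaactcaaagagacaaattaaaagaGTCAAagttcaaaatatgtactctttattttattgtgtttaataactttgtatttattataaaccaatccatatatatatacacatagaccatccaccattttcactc
CYP71A13, chr2:13111989-13112288, minus strand: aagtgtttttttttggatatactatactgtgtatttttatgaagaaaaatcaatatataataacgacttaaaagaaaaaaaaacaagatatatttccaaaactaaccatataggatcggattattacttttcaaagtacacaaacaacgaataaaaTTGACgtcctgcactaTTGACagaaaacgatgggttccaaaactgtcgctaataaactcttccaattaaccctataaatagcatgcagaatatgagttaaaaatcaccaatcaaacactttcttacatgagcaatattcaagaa
PAD3, chr3:9887617-9887916, plus strand: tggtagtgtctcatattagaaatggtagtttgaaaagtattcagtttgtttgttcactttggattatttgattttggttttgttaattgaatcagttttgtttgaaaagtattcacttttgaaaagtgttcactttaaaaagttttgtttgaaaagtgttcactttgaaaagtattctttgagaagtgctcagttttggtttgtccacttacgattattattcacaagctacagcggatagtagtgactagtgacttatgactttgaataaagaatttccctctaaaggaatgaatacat
The core TTGAC occurred 2 times each upstream of CYP81F2 (first bases at -193 and -108, counted back from the gene's start) and CYP71A13 (-144 and -128), and 0 times upstream of CYP83B1 and PAD3. Among all 9 genes, 4 windows held it, each 2 times, the other two being those of MYB51 and SUR1. Of the 27443 windows of protein-coding genes, 50.4% held TTGAC at least once and 17.9% at least 2 times, so the letters are common. The bases next to this core were not part of the search, so a match need not be a full W-box. Only the 300 bases before each gene's start were searched, so 0 in a window says nothing about sequence farther upstream. The G-box CACGTG occurred upstream of SUR1 alone among the 9 genes (at -50), and in 7.09% of all windows. A second set shows the pair of aldoxime-forming genes, with capitals for the longest run of letters that their windows share.
CYP79B2, chr4:18524742-18525041, plus strand: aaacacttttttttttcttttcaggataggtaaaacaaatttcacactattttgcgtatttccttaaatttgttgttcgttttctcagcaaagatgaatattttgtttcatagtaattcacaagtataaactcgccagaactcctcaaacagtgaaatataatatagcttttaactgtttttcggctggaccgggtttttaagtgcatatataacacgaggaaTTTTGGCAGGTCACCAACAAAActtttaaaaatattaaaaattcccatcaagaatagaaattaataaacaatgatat
CYP79B3, chr2:9488113-9488412, plus strand: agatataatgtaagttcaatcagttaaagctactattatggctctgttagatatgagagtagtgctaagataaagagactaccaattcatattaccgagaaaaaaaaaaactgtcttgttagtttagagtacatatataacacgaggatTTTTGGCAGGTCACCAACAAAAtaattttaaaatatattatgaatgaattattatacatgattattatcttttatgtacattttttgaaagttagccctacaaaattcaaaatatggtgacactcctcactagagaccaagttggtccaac
The shared run, TTTTGGCAGGTCACCAACAAAA, is 22 bases long and begins at -77 in CYP79B2 and at -151 in CYP79B3. Searched on both strands, it occurred in no other of the 27443 windows.

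Each library held between 41423334 and 60323158 counted reads (median 44010088), of which 63.9% to 72.3% fell on plastid genes, so that 11000694 to 19583758 reads were left for the nuclear genes. Levels are given as counts per 1000000 (CPM), with library sizes scaled by trimmed mean of M values (TMM) factors. The leaf genes RBCS1A, RCA and LHCB1.1 had at least 43207 counts in every library. The root hair gene EXPA7 and the seed gene CRU3 were at 0 in all 10, while COBL9, AP3, PI and OLE1 had at most 1 count, AG had 1 to 7 and PYK10, a glucosidase best known from roots, had 245 to 710. The libraries differed most along a first principal component that held 39.2% of the variance of log2 CPM over the 18442 genes that average 10 or more counts. On it, replicates 1, 9, 8 and 4 lay on one side, replicates 5, 7, 2, 6 and 3 on the other, and replicate 10 between them. The plastid share followed this component with Pearson r = -0.77 over the 10 libraries.

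Per kilobase of exon, the core enzymes were the most abundant of the 9 genes and the camalexin gene CYP71A13 the least. CYP83B1 averaged 27.7 ± 6.09 CPM per kb and SUR1 22.7 ± 2.89 (SD, n = 10 here and below), and their order was not fixed, CYP83B1 being the higher in 7 of 10 libraries. CYP79B2 followed with 7.51 ± 1.40 and CYP79B3 with 3.47 ± 0.649 CPM per kb. MYB34 had 2.59 ± 0.427 CPM per kb, and its range (1.98 to 3.24) overlapped that of CYP79B3 (2.24 to 4.35). MYB51 had 0.769 ± 0.216 CPM per kb. PAD3, with 0.412 ± 0.295, and CYP81F2, with 0.383 ± 0.255, could not be ranked against each other, and both ranges reached into that of MYB51. CYP71A13 had 0.0692 ± 0.0671 CPM per kb.

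**Figure D1:**
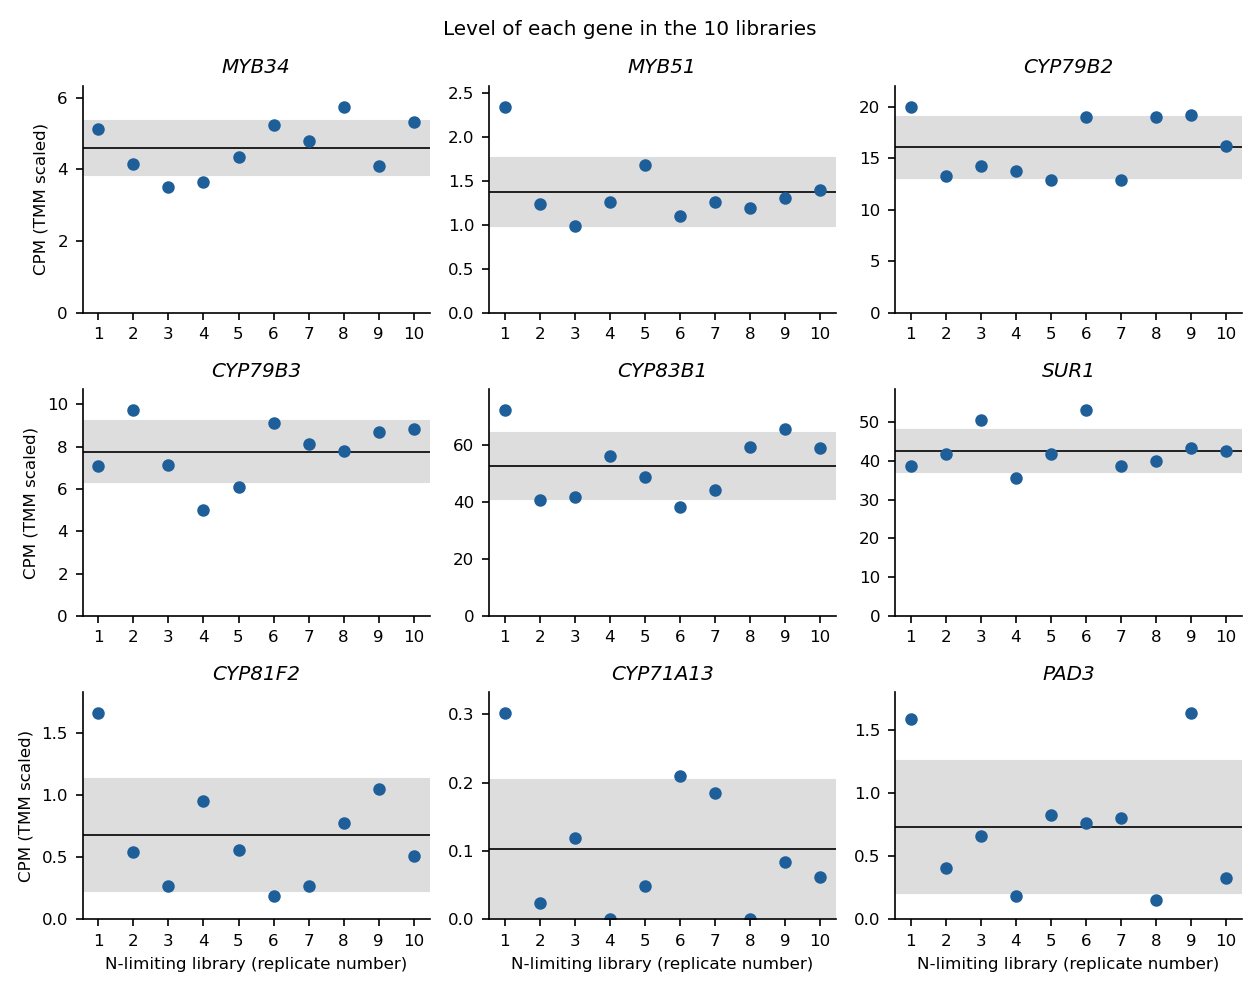
Level of each of the 9 genes (vertical axes, TMM-scaled CPM) in the 10 N-limiting libraries (horizontal axes, replicate number). Points are single libraries, the line is the mean and the grey band 1 SD to either side; CYP81F2, CYP71A13 and PAD3 are spread over most of their axes, and replicate 1 stands alone for MYB51 at 2.34 CPM.

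Of the regulators, MYB34 was present at a lowest level of 3.52 CPM, a median of 4.57 and a highest of 5.75. It was low in replicates 3 and 4 and high in replicates 8, 10, 6 and 1, and its coefficient of variation (CV, the SD as a percentage of the mean) was 16.5%. MYB51 ran from 0.983 CPM through a median of 1.26 to 2.34, with replicate 3 lowest and replicate 1 highest. Its CV of 28.1% fell to 15.0% without replicate 1, so that this library alone set much of its spread. The level of MYB34 per kb was above that of MYB51 in 10 of 10 libraries, by 2.20-fold in replicate 1 to 4.88-fold in replicate 8 (median 3.49-fold). MYB122, another closely related activator, had between 0 and 3 counts per library.

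At the entry to the pathway, CYP79B2 had a lowest level of 12.9 CPM, a median of 15.2 and a highest of 20.0 (CV 18.6%). It was near 19 to 20 CPM in replicates 1, 6, 8 and 9, at 16.2 in replicate 10 and between 12.9 and 14.2 in the remaining 5. CYP79B3 had a lowest level of 5.01 CPM, a median of 7.96 and a highest of 9.74 (CV 18.7%), with its low values in replicates 4 and 5. Although both enzymes carry out the same reaction, their levels were not shown to vary together (Pearson r = 0.31). CYP79B2 exceeded CYP79B3 per kb in every library, by 1.43-fold in replicate 2 to 2.96-fold in replicate 1 (median 2.20-fold).

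In the core pathway, CYP83B1 ran from 38.3 CPM through a median of 52.4 to 72.4 (CV 22.0%). Replicates 1, 4, 8, 9 and 10 all had at least 56.0 CPM and replicates 2, 3, 5, 6 and 7 at most 48.7. SUR1 was the steadiest of the 9 genes, with a lowest level of 35.4 CPM, a median of 41.7 and a highest of 53.2 (CV 12.7%). Its high values lay in replicates 3 and 6, where CYP83B1 was low.

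CYP81F2, which modifies the finished glucosinolate, had a far larger CV than the genes that make it. Its lowest level was 0.184 CPM (7 counts, replicate 6), its median 0.551 and its highest 1.66 CPM (88 counts, replicate 1), a 9.03-fold range. Replicates 3, 6 and 7 were low, and replicates 1, 9 and 4 high. Its CV of 66.6% exceeded that of 98.6% of the 3495 genes with a similar mean count (0.5 to 2 times its own), whose median CV was 24.1%. Without replicate 1 the CV was 53.9%.

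The camalexin genes varied as widely and were barely expressed, with PAD3 about as low as CYP81F2 (0.412 and 0.383 CPM per kb) and CYP71A13 lower still. PAD3 had 7 to 84 counts per library, with a lowest level of 0.151 CPM in replicate 8, a median of 0.709 and a highest of 1.63 in replicate 9, a 10.8-fold range. Replicates 1 and 9 stood above the rest and replicates 4 and 8 below them, and the CV of 71.5% exceeded that of 98.98% of the 3515 genes of similar mean. CYP71A13 had 0 counts in replicates 4 and 8, 1 to 9 in 7 other libraries and 16 in replicate 1, which is 0 to 0.302 CPM. A count of 0 allows up to 3 counts, and no fold range is given. Its CV was 97.0%, and 53.0% was the median for genes of similar mean, of which it exceeded 95.8%. CYP71A12, its tandem neighbour, which also makes indole-3-acetonitrile, had 5 to 16 counts, with the highest value in replicate 3 and not in replicate 1. Of the 1298 runs of 50 bases in the exons of CYP71A13, 10 (0.770%) also occur in CYP71A12, and none of those of the other 8 genes occur elsewhere in the genome. CYP71A13 also overlaps AT2G30766, and whether counting used strand was not stated, so its few counts are uncertain.

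**Figure D2:**
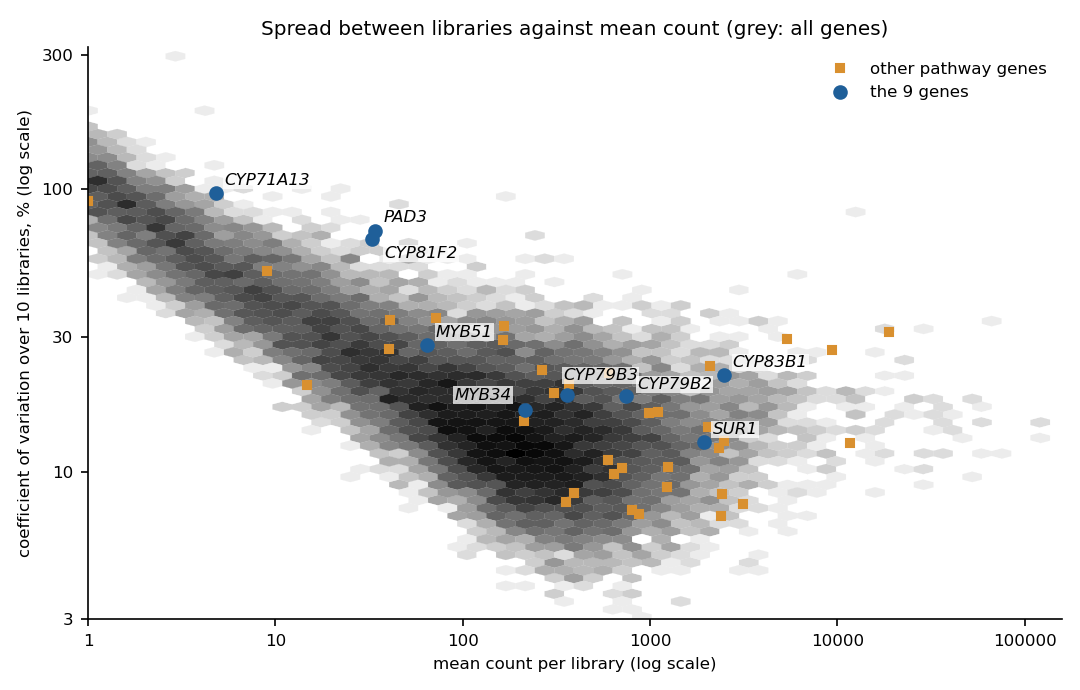
Coefficient of variation over the 10 libraries (vertical axis, percent, log scale) against the mean count per library (horizontal axis, log scale). Grey cells are all genes, darker where there are more, circles are the 9 genes and squares the other genes of the pathway; CYP81F2 (66.6%), PAD3 (71.5%) and CYP71A13 (97.0%) lie at the upper edge, whereas SUR1 (12.7%) lies in the middle of the genes with like counts.

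The 8 genes that averaged 10 or more counts, which leaves out CYP71A13, all varied beyond counting error (chi-square test of Poisson counts, Benjamini-Hochberg adjusted over 18442 genes), but so did 71.5% of all genes tested. The chi-square per degree of freedom had a median of 16.3 over the 8 genes and 3.56 over all genes. It was largest for CYP83B1, at 113, and smallest for MYB51, at 5.16, which was no longer called without replicate 1. At a given CV this value grows with the mean count, so it does not rank the genes by spread. CYP83B1 averaged 2499 counts with a CV of 22.0%, whereas PAD3 averaged 34 with a CV of 71.5% and had 18.7. The median CV was 20.4% over the 8 genes and 15.5% over all genes. Neither comparison with all genes was matched for mean count.

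The rest of the pathway is represented by a list of 35 genes for other regulators, tryptophan synthesis, the core pathway, ring modification, camalexin, and breakdown or transport, of which 33 averaged 10 or more counts. Of these, 32 varied beyond counting error, all except CYP81F3, and their median CV was 15.2%. The widest spreads belonged to CYP81F4, a ring hydroxylase (CV 34.9%), IGMT2, a methyltransferase for the hydroxylated ring (34.4%), and WRKY33 (32.9%). WRKY33 had 1.21 CPM in replicate 6, a median of 3.58 and 5.55 CPM in replicate 1. WRKY33 overlaps AT2G38480 and CYP81F4 overlaps AT4G37409, so the open question of strand in counting applies to them too. The narrowest belonged to APK1, a kinase that supplies activated sulfate (6.96%), AT2G04400, annotated with indole-3-glycerol-phosphate synthase activity in tryptophan synthesis (7.05%), and MYC3, a partner of the MYB factors (7.31%).

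Whether the genes followed one of their regulators from library to library was asked with a slope on the regulator's log2 CPM, fitted to all genes. Of 18441 genes, 0 (0%) passed an adjusted p of 0.05 for MYB34 by edgeR's quasi-likelihood test, with 716 at an unadjusted p under 0.05 and 1 by DESeq2. For MYB51 the counts were 0 (0%), 2269 and 2. For WRKY33 they were 37 (0.201%), 1703 and 154, and the 37 became 0 without replicate 1 or without replicate 6. Of the 9 genes, 7 were tested against each MYB factor and 8 against WRKY33, and none was called by either tool. From the wider list, 33 genes were tested against each MYB factor and 32 against WRKY33. There edgeR called 0, and DESeq2 called 0 with either MYB factor and 3 with WRKY33, all higher. Among the 9 genes, the slope with the smallest adjusted p was that of CYP81F2 on WRKY33. It was 1.33 ± 0.39 log2 units per log2 unit (SE, edgeR adjusted p = 0.278). On MYB51, CYP81F2 had a slope of 1.67 ± 0.53 and CYP83B1 one of 0.58 ± 0.22 (edgeR adjusted p = 0.405 for both). On WRKY33, PAD3 had a slope of 0.55 ± 0.47 (edgeR adjusted p = 0.694), which was 0.18 without replicate 1 and 2.09 without replicate 6, and not called in either case. CYP79B2 had a slope of 0.61 ± 0.29 on MYB34 (edgeR adjusted p = 0.970). Slopes on the total count of a library gave 0 calls (0%) among 18442 genes by edgeR, 613 at an unadjusted p under 0.05 and 13 by DESeq2, none of them among the 9 genes.

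The 9 genes form 36 pairs, of which 26 had a positive and 10 a negative Pearson r of log2 CPM over the 10 libraries (median r = 0.24). CYP83B1 and CYP81F2 were the single pair past an adjusted p of 0.05 (Pearson r = 0.89, permutation p = 0.00085, adjusted p = 0.0306 over 36 pairs; Spearman rho = 0.83, permutation p = 0.00449, adjusted p = 0.162). Both were highest in replicate 1 and lowest in replicate 6. Without these 2 libraries, the farthest from the median of CYP83B1, r was 0.77. The adjusted p rose above 0.05 when replicate 1, 3, 5, 6, 7 or 8 was left out (r = 0.83 to 0.89), and was 0.236 without replicate 1.

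This pair cannot be told apart from the main difference between the libraries. CYP83B1 had r = 0.92 and CYP81F2 r = 0.89 with the first principal component, and 19.8% of the 12431 other genes averaging 100 or more counts had r of at least 0.7 with CYP83B1, against 17.6% for CYP81F2. The sides of that component hold 4 and 5 libraries, too few for a correlation within each. After a linear fit on the plastid share, chosen after the data were seen, the residuals of the pair had r = 0.67 (permutation adjusted p = 0.307), and no pair passed.

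The second pair was CYP71A13 and PAD3, the camalexin enzymes (Pearson r = 0.81, permutation p = 0.00607, adjusted p = 0.109 over 36 pairs; Spearman rho = 0.68, permutation p = 0.0362, adjusted p = 0.532). Both were low in replicates 4 and 8 and high in replicate 1, whereas replicate 9 had the most PAD3 and 4 counts of CYP71A13. Without replicates 1 and 8, r was 0.65, and on the residuals from the plastid share it was 0.80 (permutation adjusted p = 0.176). Of the genes averaging 100 or more counts, 0.105% had r of at least 0.7 with PAD3 and 0.153% with CYP71A13, both far below the shares for CYP83B1 and CYP81F2. Mean counts were 34.0 for PAD3, 4.8 for CYP71A13 and 32.8 for CYP81F2. For CYP79B3, which averaged 361.2, the share was 0.547%. How far few counts lower these shares was not tested. With the first principal component, PAD3 had r = -0.05 and CYP71A13 r = -0.22. The camalexin genes were not shown to vary with CYP81F2, with r = 0.06 for PAD3 and r = -0.25 for CYP71A13. Single libraries moved both values. Without replicate 1, r was -0.28 for PAD3 and -0.79 for CYP71A13 (exact permutation adjusted p = 0.236 for CYP71A13). At the other end, r was 0.23 for PAD3 without replicate 4 and -0.06 for CYP71A13 without replicate 6.

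**Figure D3:**
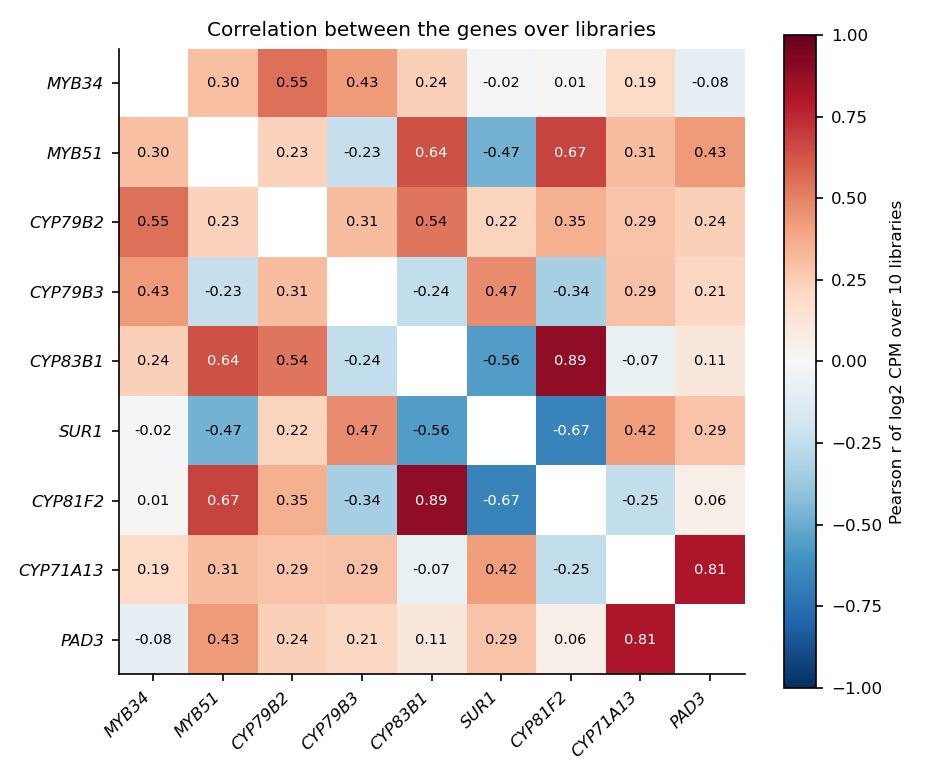
Pearson r of log2 CPM over the 10 libraries for the 36 pairs of genes, red for positive and blue for negative values. The deepest red cells are CYP83B1 with CYP81F2 (0.89) and CYP71A13 with PAD3 (0.81), and SUR1 has negative values with CYP81F2 (-0.67) and CYP83B1 (-0.56).

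**Figure D4:**
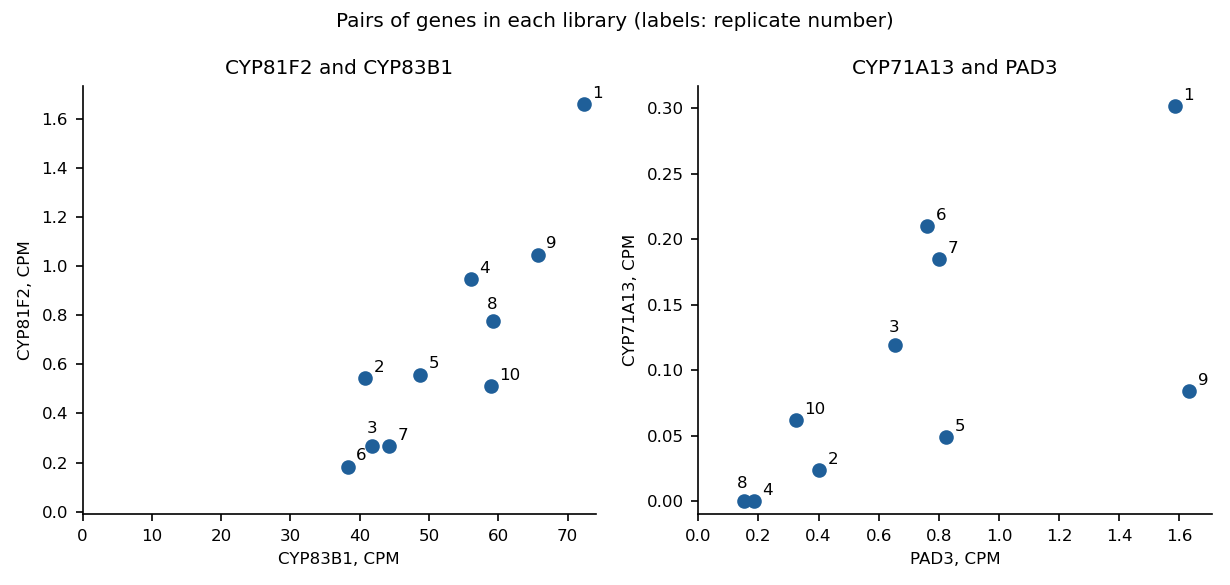
Levels of both genes of a pair in each library (axes in TMM-scaled CPM, points numbered by replicate), for CYP81F2 against CYP83B1 on the left and CYP71A13 against PAD3 on the right. Replicate 1 lies at the upper right in both, and in the right panel replicate 9 has 1.63 CPM of PAD3 with 0.0838 CPM of CYP71A13.

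The regulators and the aldoxime-forming enzymes showed weaker relations. MYB51 had r = 0.67 with CYP81F2 and r = 0.64 with CYP83B1 (permutation adjusted p = 0.249 for both), and these values were 0.42 and 0.38 without replicate 1. MYB34 had r = 0.55 with CYP79B2 (permutation adjusted p = 0.504) and r = 0.30 with MYB51 (permutation adjusted p = 0.698). CYP79B2 had r = 0.54 with CYP83B1 (permutation adjusted p = 0.504), which was 0.86 without replicate 6. SUR1 had r = -0.67 with CYP81F2 (permutation adjusted p = 0.249), which was -0.49 without replicate 6 and -0.84 without replicate 7. With the first principal component, MYB51 had r = 0.50 and SUR1 r = -0.62. On the residuals from the plastid share, MYB51 had r = 0.13 with CYP81F2 and 0.10 with CYP83B1. SUR1 then had r = -0.03 with CYP81F2. The residuals gave r = 0.52 for MYB34 with CYP79B2 and 0.59 for CYP79B2 with CYP83B1.

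Among the 29 genes of the wider list that averaged 100 or more counts, 8 had r of at least 0.7 with CYP83B1 and 3 had r of -0.7 or below. For CYP81F2 these counts were 8 and 6. Over all genes averaging 100 or more counts, 15.5% had r of -0.7 or below with CYP83B1 and 14.3% with CYP81F2. The 8 with CYP83B1 were PEN2 (0.90), TGG2 (0.87), GSTF10 (0.85), PEN3 (0.84), MYC3 (0.83), TGG1 (0.82), GTR1 (0.81) and ASA1 (0.79). They came from several parts of the list. PEN2, PEN3, TGG1 and TGG2 act in breakdown or export, and GTR1 is a glucosinolate transporter. GSTF10 belongs to the core pathway, MYC3 to the regulators and ASA1 to tryptophan synthesis. The 3 at -0.7 or below with CYP83B1 were OBP2, a regulator (-0.77), GTR2, the other glucosinolate transporter of the list (-0.75), and GSTF9 (-0.72). APK2, a kinase for activated sulfate, and SOT16, the sulfotransferase that finishes the glucosinolate, had r = -0.84 and -0.81 with CYP81F2. The other core genes of the list were split, with GSTF9 at -0.76 and APK1 at -0.71 but UGT74B1 at 0.23, GGP1 at 0.32 and GSTF10 at 0.90. These correlations are descriptions over the same 10 libraries, to be read against the shares of all genes given for CYP83B1 and CYP81F2. SUR1 had r of at least 0.7 with 3 of the 29 and of -0.7 or below with 4, while 4.72% and 5.85% of all such genes did. CYP79B3 reached 0.7 with 2 of the 29 (0.547% of all genes) and CYP79B2 with 1 (2.81%). MYB34 (0.861%), MYB51 (2.13%), CYP71A13 and PAD3 reached it with 0.

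The plastid share of a library went with the level of 4 of the 8 genes tested. A larger share went with lower CYP81F2, at -0.31 ± 0.07 log2 units per percentage point (SE, edgeR adjusted p = 0.0117), lower CYP83B1, at -0.10 ± 0.02 (edgeR adjusted p = 0.0187), and lower MYB51, at -0.11 ± 0.03 (edgeR adjusted p = 0.0328). It went with higher SUR1, at 0.06 ± 0.02 (edgeR adjusted p = 0.0378). Of all 18442 genes, 16.1% were called, 9.28% lower and 6.84% higher with a larger share. In the wider list 4 of 33 genes were called, with TGG1 (-0.19), TGG2 (-0.13) and PEN2 (-0.06), which are enzymes of glucosinolate breakdown, lower, and GSTF9 (0.06), a glutathione transferase of the core pathway, higher. MYB34, CYP79B2, CYP79B3 and PAD3 had slopes between -0.04 and 0.02 (edgeR adjusted p = 0.506 to 0.814). Without replicate 1 the slope of PAD3 was 0.24 and that of CYP79B2 0.01, both of the opposite sign and not called. The calls rested on few libraries: without replicate 1, 688 genes and none of the 9 were called, and without replicate 3, 117 genes and none of the 9. With library sizes that ignore the TMM factors, the slope of SUR1 changed sign to -0.02 (edgeR adjusted p = 0.38).

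**Figure D5:**
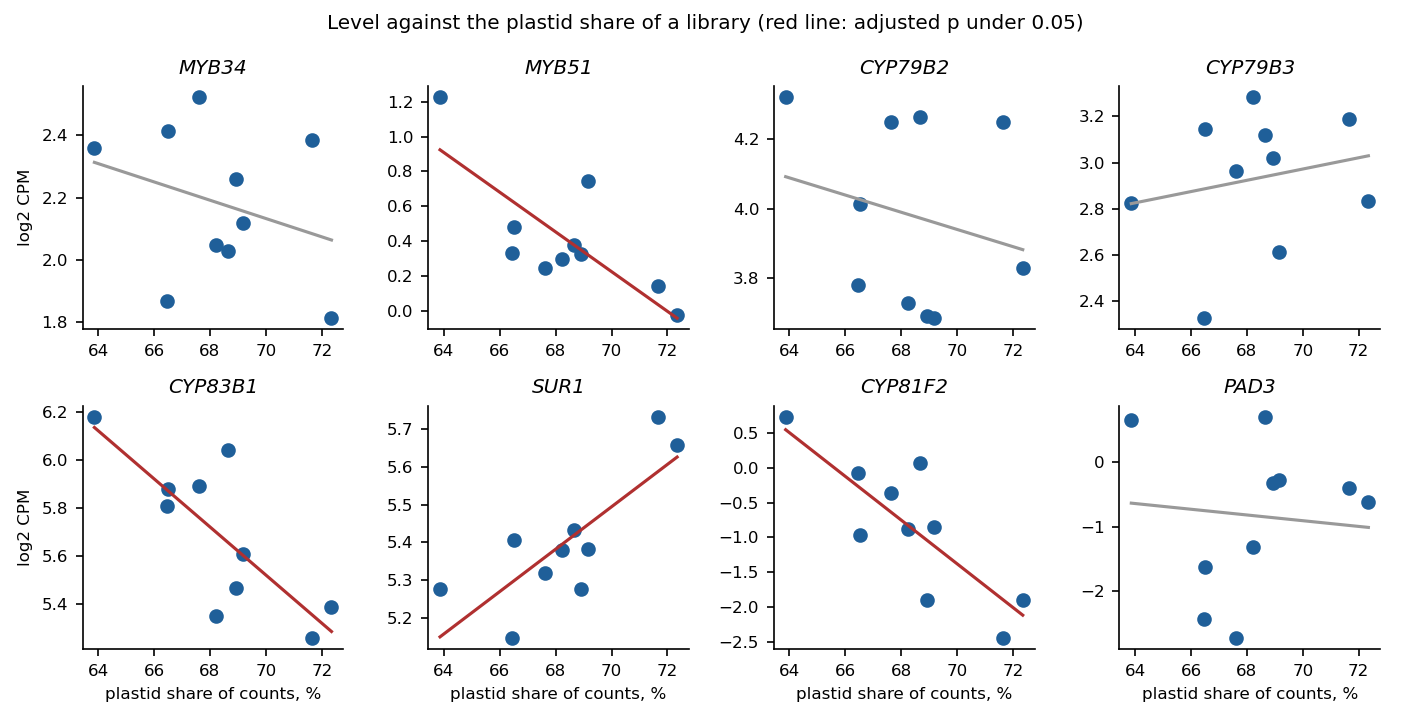
Level of 8 genes (vertical axes, log2 CPM) against the share of a library's counts on plastid genes (horizontal axes, percent). Points are the 10 libraries, lines have the slope fitted by edgeR, and red lines mark the genes called, CYP81F2, CYP83B1, MYB51 and SUR1; replicate 1 has the smallest share (63.9%) and replicate 3 the largest (72.3%).

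The genes most like each of the 9, by Pearson r of log2 CPM over the 10 libraries among genes averaging 100 or more counts, came from many functions and are a description. For the regulators they were AT1G20070 (0.86) and TOC132 (0.86) with MYB34, and ORP1C (0.93) and TBL14 (0.92) with MYB51. For the entry enzymes they were GH9C2 (0.95) and AT3G62010 (0.94) with CYP79B2, and AT5G50230 (0.89) and AT4G15520 (0.88) with CYP79B3. CYP83B1 was most like SDH1-1 (0.98) and ADR1 (0.98), SUR1 most like VOZ1 (0.94) and APS3 (0.93), and CYP81F2 most like PAH2 (0.97) and HDG2 (0.97). CYP71A13 was most like AT4G35140 (0.86) and NUDT22 (0.81). PAD3 was most like TAT3 (0.90), annotated as a tyrosine aminotransferase and itself widely spread between the libraries (CV 67.1%), followed by AT4G32680 (0.78).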

How the data were processed

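Stranded, ribosomal RNA-depleted libraries of rosettes were sequenced by the authors. Per the labels they were aligned to TAIR10 with STAR, and the authors deposited raw counts of reads per gene, 1 file per sample. Counting options and read length were not given in the sources used here. The 10 N-limiting files were used, because the N-sufficient files repeat them. Counts were scaled with TMM factors (edgeR 4.0.16, R 4.3.3). Log2 CPM used a prior count of 2, and fits used the 18442 genes averaging 10 or more counts, which leaves out CYP71A13. Slopes came from edgeR's quasi-likelihood test, counting error from a chi-square test and pair correlations from two-sided permutation tests with 100000 resamples (Python 3.11.15, scipy 1.17.1), all with Benjamini-Hochberg adjustment and a threshold of 0.05. The tests were tried on simulated data. Alternatives were DESeq2 1.42.0 with its size factors, no TMM factors, nuclear genes only, every gene with a count, thinned libraries, a prior count of 0.5, Spearman's rho and each replicate left out. Genes and windows were located on RefSeq TAIR10.1.

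The text names the 9 genes, WRKY33, MYB122 and CYP71A12, from the 33 genes of the list averaging 10 or more counts the 3 of largest and the 3 of smallest CV, and for each of the 9 genes the 2 most correlated. Other genes of the list were named after their values were seen. The 9 genes and the list were chosen with earlier results of these data known.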

Additional observations from a re-analysis of the deposited data

Results flagged for a closer look

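The highest and lowest library of each of the 44 pathway genes were compared with the rest by the gap to the next library over the gene's whole range, with Dixon's limit for 10 samples. Chance passes this limit in about 1 in 20 groups, and 4 of the 44 genes passed it, each at its highest library. MYB51 was high in replicate 1 (gap 0.491 of the range), which holds 2.34 CPM against 1.67 in the next library. CYP71A12 was high in replicate 3 (0.569), at 16 counts. TSB2, a tryptophan synthase gene, was high in replicate 6 (0.484), and UGT74B1, the glucosyltransferase of the core pathway, was high in replicate 10 (0.472).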

How the results depend on the processing

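No paired analysis was possible because the files with the same replicate number under both labels hold the same counts. When single replicates were left out, the genes varying beyond counting error numbered 12328 to 13138 (13193 with all libraries), genes called with the plastid share 117 (without replicate 3) to 3809 (without replicate 9), 2973 with all, those with WRKY33 0 to 64, with MYB51 0 to 1, with the total count 0 to 4 and with MYB34 0. The count of pairs was 0 to 2, and the median CV of the 9 genes 19.2% to 23.5%. Without TMM factors, 2289 genes were called with MYB34, 7346 with MYB51, 450 with WRKY33 and 10691 with the plastid share, 5 pairs passed and the median CV was 33.4%, against 22.0% with the factors. That scaling moved the median slope of all genes to 0.42 for MYB34, 0.34 for MYB51, 0.19 for WRKY33, 0.11 for the total count and -0.08 for the plastid share, where 108 genes were then higher and 10583 lower, against 1262 and 1711, and SUR1 had -0.0174. DESeq2 called 1 gene with MYB34, 2 with MYB51, 154 with WRKY33 and 13 with the total count. With every gene of at least 1 count, 3 were called with MYB51 and 4 with the total count. A prior count of 0.5 gave 2 pairs, Spearman's rho 0 and the residuals from the plastid share 0. The cause of these shifts was not tested. Of the member slopes, the calls with the plastid share were lost 14 times over the libraries left out. SUR1 lost its call without replicate 1, 3, 4, 5, 6 or 8, CYP83B1 and MYB51 without 1, 3 or 6, and CYP81F2 without 1 or 3. Depth limits CYP71A13 most, with a mean of 4.8 counts.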
